A study of Mus musculus with 2 samples.

Results

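The small leucine-rich proteoglycans are secreted proteins of the extracellular matrix, and 10 of their genes are described here: Dcn, Bgn, Aspn, Lum, Kera, Fmod, Prelp, Omd, Ogn and Epyc. They are 10 of the 28305 named genes on the array, and each was represented by 1 probe. The probes were taken by gene name from the non-control probes of both arrays, and the names of all 10 matched RefSeq symbols. The family was chosen by the values measured in the comparison described here, since log2 ratios of its members, Kera above all, were already known. The values below are therefore a description of these genes with no test.

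RNA of dissected ureters was compared between Smad4cKO (UM) and control mouse embryos of the NMRI strain at E14.5 on 2 two-colour arrays. The mutants were Tbx18(cre/+);Smad4(fl/fl), and the controls were Tbx18(+/+);Smad4(fl/+), so the controls also carried 1 floxed Smad4 allele. Cre came from the Tbx18 locus, which is active in the mesenchyme around the ureteric epithelium, and Smad4 is the partner that BMP and TGFB receptor SMADs share. The Tbx18 allele with Cre was present in the mutants alone, so its effects and those of Smad4 loss cannot be told apart. Array 1 held a female pair with the labelled control in the red dye, and array 2 held a male pair with the labelled Smad4cKO in the red dye. Dye orientation and sex of the pair changed together and cannot be told apart. The labels give neither the number of embryos per RNA nor the litters, so the spread between the arrays may be partly technical.

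Small leucine-rich proteoglycans have a core of leucine-rich repeats that folds into a curved solenoid, and most carry glycosaminoglycan chains. They bind collagen fibrils and limit or guide their lateral growth, and several also bind growth factors of the TGFB and BMP family. Decorin, biglycan and asporin form class I, lumican, keratocan, fibromodulin, PRELP and osteomodulin form class II, and osteoglycin and epiphycan belong to class III. In connective tissue they are products of fibroblasts and related cells, and in the wall of the ureter such cells lie in the lamina propria and in the outer fibrous layer.

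Kera, which encodes the keratan sulfate proteoglycan keratocan known from the cornea, had lower signal in the labelled Smad4cKO than in the labelled control, by 2.73-fold on array 1 and 2.19-fold on array 2 (10 spots each). This direction follows the dye labels. The authors' deposited table lists signed folds of 3.06 and 2.37 for Kera, which by the dye labels are control over Smad4cKO, whereas the sample titles name Smad4cKO first. All signs below follow the dye labels. Epyc was also lower on both arrays by a smaller amount, and Prelp and Bgn were higher on both. Lum and Dcn were higher in the red dye on both arrays, so their ratios had opposite signs on the 2 arrays. The ratios of Ogn, Fmod and Aspn were near 0, and Omd was not well above background in any of the 4 channels. Of the 9 members that could be compared, 1 was dimmer and 0 were brighter in the labelled Smad4cKO by at least 1.5-fold on both arrays. Among all 21268 genes tested, 0.522% were dimmer and 0.489% brighter by this rule, but nothing is read from the members' count, because they were chosen on this contrast. With limma and Benjamini-Hochberg adjustment (threshold 0.05), 0 of 21268 genes were called, or 0%. This count depended on the settings, with 145 brighter and 164 dimmer calls from processed signals and 290 and 395 with an intensity-dependent prior and robust estimation. At an unadjusted p under 0.05, limma gave 454 brighter and 631 dimmer genes.

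The 10 probes are 60 bases long, and the first 30 bases of those of the chromosome 10 cluster are shown because the lowest and the highest ratio of the family on a single array came from these neighbouring genes. They are written 5′ to 3′ with no capitals, at the positions that the scanner files give for whole probes on build mm9.
Dcn (chr10:96980233-96980292, plus strand): aacaccttcagatgtgtctatgtgcgttct
Lum (chr10:97035210-97035269, plus strand): taagcatttgcacggttacttagtgaaact
Kera (chr10:97076230-97076289, plus strand): gcagttattataacatagcatgcaaactat
Epyc (chr10:97143965-97144024, plus strand): atctcttcagaagcaaactcagtatatttg
Over the 45 pairs of member probes, ungapped alignments matched at most 27 of 60 bases, which was the pair of Kera and Prelp. The longest stretch shared by any pair on either strand was 9 bases. Annotation of exons and UTRs on build mm9 was not used here, so the place of each probe within its transcript is not given.

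Kera was spotted 10 times on each array, while each of the other 9 members had 1 spot. On array 1 the processed signal of Kera averaged 280 in the channel labelled Smad4cKO and 842 in the channel labelled control. On array 2 it averaged 420 and 1004. The spots of the labelled Smad4cKO ranged from 254 to 322 on array 1 and from 390 to 450 on array 2. Those of the labelled control ranged from 807 to 900 and from 916 to 1069. The spots of the 2 groups did not overlap on either array, and the share of other probes with such separation was not counted. Repeated spots measure the same RNA and are not biological replicates.

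**Figure D1:**
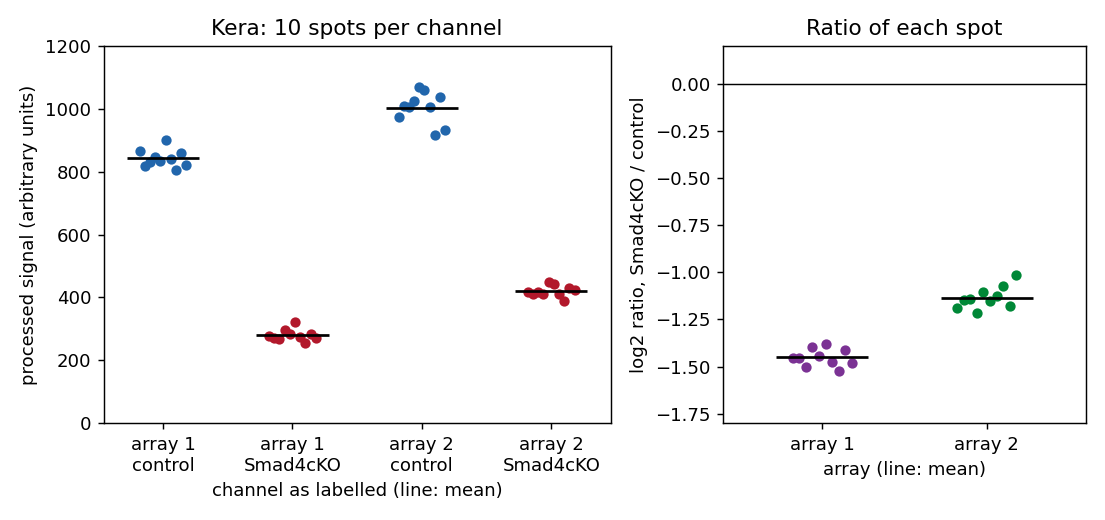
Processed signal of the 10 Kera spots in each channel (left, arbitrary units, axis from 0) and the log2 ratio of labelled Smad4cKO over labelled control of each spot (right), with lines at the means. Within each array every Smad4cKO spot lies below every control spot, and all ratios are below 0.

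The log2 ratio of labelled Smad4cKO over labelled control for Kera was -1.45 on array 1 and -1.13 on array 2. The mean of -1.29 ± 0.15 (limma SE, n = 2 arrays) is a 2.45-fold lower signal in the channel labelled Smad4cKO. The SD of the 10 spot ratios was 0.045 on array 1 and 0.059 on array 2, close to the medians of 0.045 and 0.049 over the 313 tested probes that were also spotted 10 times. In such a bulk measurement fewer cells of a type and less RNA per cell cannot be told apart.

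Epyc encodes epiphycan, a dermatan sulfate proteoglycan known from growth plate cartilage, and its gene follows Kera on chromosome 10. Its processed signals were 345 in the labelled Smad4cKO and 518 in the labelled control on array 1, and 442 and 553 on array 2. The labelled control was higher within each array. The log2 ratios were -0.51 and -0.35, with a mean of -0.43 ± 0.13 (limma SE, n = 2 arrays), a 1.34-fold lower signal. This was below 1.5-fold on both arrays.

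Dcn encodes decorin and Lum encodes lumican, which both bind fibrillar collagens. Dcn gave processed signals of 74073 in the labelled Smad4cKO and 83090 in the labelled control on array 1, and of 83379 and 49944 on array 2. Lum gave 35668 and 45497 on array 1, and 47309 and 24184 on array 2. In both genes the channel in the red dye was brighter on both arrays, which was the control on array 1 and the Smad4cKO on array 2. The log2 ratios of Smad4cKO over control were -0.45 and 1.06 for Dcn and -0.47 and 1.08 for Lum. Their means were 0.31 ± 0.34 for Dcn and 0.31 ± 0.35 for Lum (limma SE, n = 2 arrays), so both means lay within 1 SE of 0.

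Higher red signal was seen in other bright genes too. Average signal placed Dcn at percentile 99.3 and Lum at percentile 96.6 of the genes tested. In the brightest 1% of genes (213 genes), the median log2 ratio of red over green was 0.30 on array 1 and 0.51 on array 2, and 13.1% of genes had the same sign of Smad4cKO over control on both arrays. Between percentiles 90 and 99 these medians were 0.06 and 0.09, with 12.7% of genes of the same sign, against 39.7% over all genes. The red over green values of Dcn (0.45 and 1.06) and Lum (0.47 and 1.08) lay above the medians of their brightness classes on both arrays. Of the 269 genes at 1.5-fold with opposite signs on the 2 arrays, 264 were brighter in red on both. The part of the dye in the values of Dcn and Lum was not tested.

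**Figure D2:**
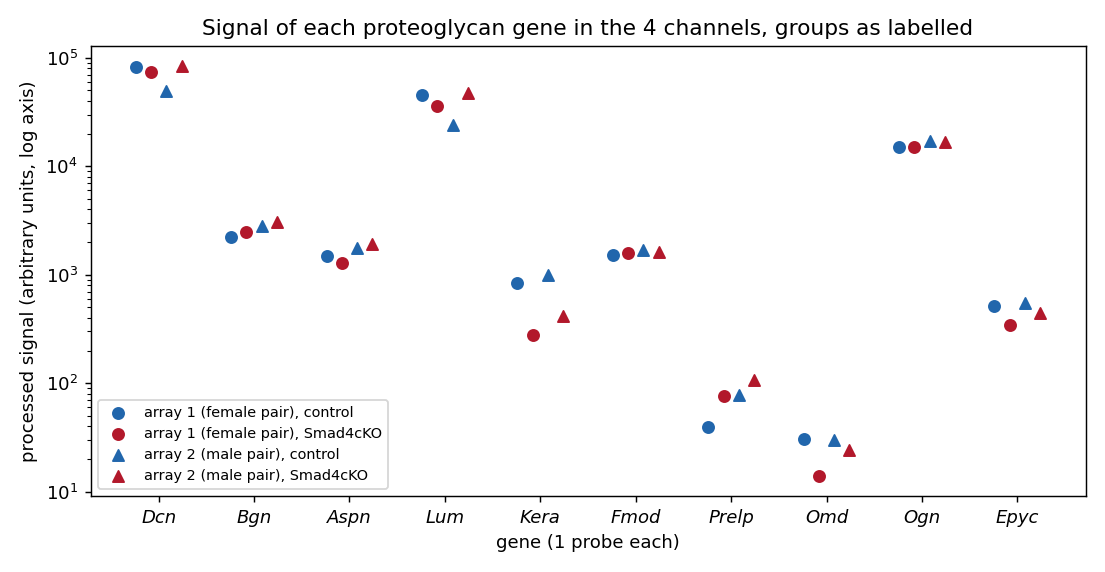
Processed signal (arbitrary units, log axis) of the 10 proteoglycan genes in the 4 channels, with circles for array 1 and triangles for array 2, blue for labelled control and red for labelled Smad4cKO; signals of different genes come from different probes and are not compared. Kera and Epyc are lower in the labelled Smad4cKO within each array, while Dcn and Lum change order between the arrays.

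Bgn encodes biglycan, the closest relative of decorin, and lies on the X chromosome (probe chrX:70738554-70738613, mm9). Its processed signals were 2460 in the labelled Smad4cKO and 2239 in the labelled control on array 1, and 3057 and 2807 on array 2. The Smad4cKO was higher within each array, but the ranges of the groups overlapped. The log2 ratios were 0.18 and 0.10, with a mean of 0.14 ± 0.13 (limma SE, n = 2 arrays). Aspn encodes asporin, which lacks the glycosaminoglycan attachment site of decorin and biglycan. The processed signals of Aspn were 1292 and 1490 on array 1 and 1905 and 1755 on array 2, in the order Smad4cKO and control. Its log2 ratios of -0.18 and 0.09 had opposite signs, and the mean was -0.05 ± 0.14.

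Fmod encodes fibromodulin, which binds collagen at a site that lumican shares. It gave processed signals of 1577 in the labelled Smad4cKO and 1511 in the labelled control on array 1, and 1613 and 1684 on array 2. The log2 ratios of 0.02 and -0.04 were the smallest of class II, with a mean of -0.01 and an order of the groups that differed between the arrays. Prelp encodes a proline- and arginine-rich member that binds heparan sulfate at its amino end. Its processed signals were 76.9 and 39.3 on array 1 and 106 and 78.4 on array 2, in the order Smad4cKO and control, all well above background. They were dim all the same, with the average signal of Prelp at percentile 12.2 of the genes tested. The Smad4cKO was higher on both arrays, and its lower value lay just below the higher control value. The log2 ratios were 0.45 and 0.31, with a mean of 0.38 ± 0.13 (limma SE, n = 2 arrays), and with the scanner's processed signals in place of the background-corrected and loess-normalized ones the mean was 0.70 (0.97 and 0.44). The Prelp probe was designed on a cDNA clone and lies on the minus strand (chr1:135806855-135806914, mm9).

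Omd encodes osteomodulin, known from bone. It gave processed signals between 14.0 and 30.6 in the 4 channels, none well above background. No ratio is given for it. Ogn encodes osteoglycin, also called mimecan. It gave processed signals of 14982 and 15166 on array 1 and 16579 and 17042 on array 2. The ratios of Ogn were 0.02 and -0.01 on the log2 scale, with a mean of 0.0031 ± 0.13 (limma SE, n = 2 arrays), so the groups differed less within an array than the arrays did from each other.

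**Figure D3:**
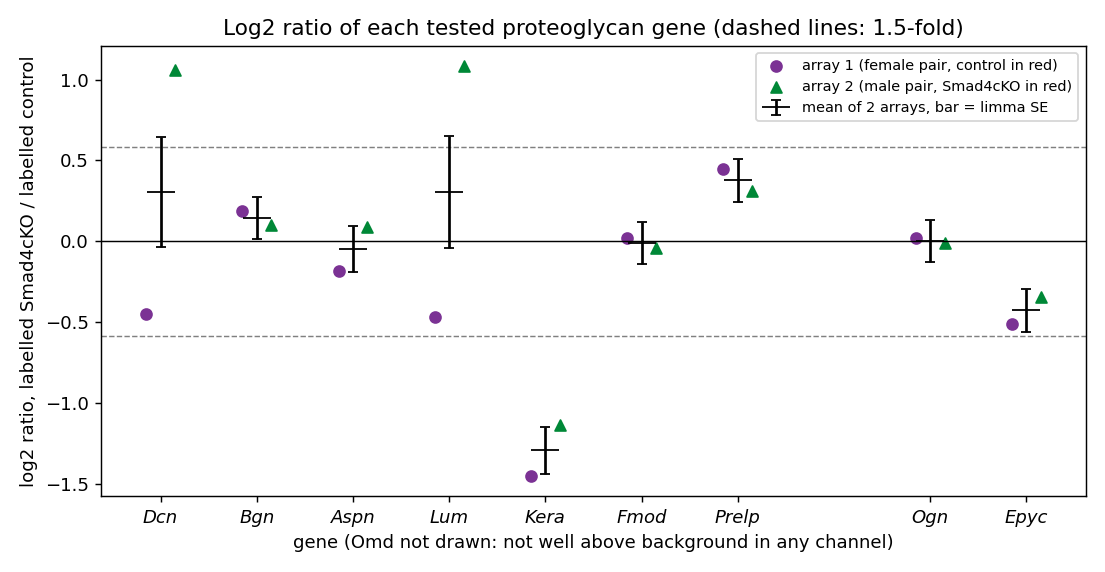
Log2 ratio of labelled Smad4cKO over labelled control for the 9 members with signal, on array 1 (circles) and array 2 (triangles), with the mean and the limma SE as bars; dashed lines mark 1.5-fold. Kera alone lies beyond 1.5-fold on the same side on both arrays (-1.45 and -1.13), and the ratios of Dcn and Lum straddle 0.

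Over the 9 members, 2 were lower on both arrays, 2 were higher on both and 5 had opposite signs. Of all genes tested, 39.7% had the same sign on both arrays. The median log2 ratio of the members was 0.0031, against 0.0048 over all genes tested. By array the members' medians were -0.18 and 0.09, against 0.0088 and -0.0074 over all genes. The absolute mean was under 0.5 in 8 of the 9, the exception being Kera. Most genes on the array were under 0.5 too, since 3.67% of those tested had a larger absolute mean than Epyc (-0.43). The small means of Lum and Dcn came from opposite signs, and on array 2 alone their ratios of 1.08 and 1.06 were about as far from 0 as that of Kera, -1.13. All 9 passed the signal filter with every channel well above background, so none entered through the group where it was brighter.

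By position, 9 of the 10 genes lie in 3 clusters. In RefSeq (GRCm38.p6) Dcn, Lum, Kera and Epyc follow each other on chromosome 10 with 0 other protein-coding genes between them, as do Aspn, Omd and Ogn on chromosome 13 and Prelp and Fmod on chromosome 1. On mm9 the probes of Dcn and Lum were 55.0 kb apart, those of Lum and Kera 41.0 kb, and those of Kera and Epyc 67.7 kb. Of the genes on either side of Kera, Epyc was lower in Smad4cKO on both arrays by a smaller amount, and Lum was lower on array 1 and higher on array 2. No other named gene with a tested probe lay within 500 kb of these 4 probes. The nearest were Btg1, 898 kb before Dcn, with a mean log2 ratio of 0.14 ± 0.21, and Gm8633, 619 kb after Epyc, with -0.12 ± 0.13; both were chosen after their values were seen.

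Around the other members no neighbour passed the 1.5-fold rule. Of 13 other genes within 500 kb on chromosome 13, 0 passed the 1.5-fold rule, and their means ran from -0.20 to 0.21. The nearest on each side were Ecm2 (0.10 ± 0.13), a leucine-rich matrix gene, and Nol8 (-0.03 ± 0.13). Of 18 others on chromosome 1, 0 passed, with means from -0.65 to 0.28, and the nearest were Optc (0.09 ± 0.15), which encodes the class III member opticin, and Btg2 (-0.10 ± 0.29). The lowest on chromosome 1 were LOC100047330, whose probe lies between those of Prelp and Fmod, with -0.77 and -0.53 on the 2 arrays, and the muscle transcription factor gene Myog, with -0.80 and -0.45; both were chosen after their values were seen. Around Bgn 0 of 26 others passed, with means from -0.44 to 0.27, and the nearest were Haus7 (-0.04 ± 0.13) and Dusp9 (0.27 ± 0.13). None of these neighbours was called by limma.

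**Figure D4:**
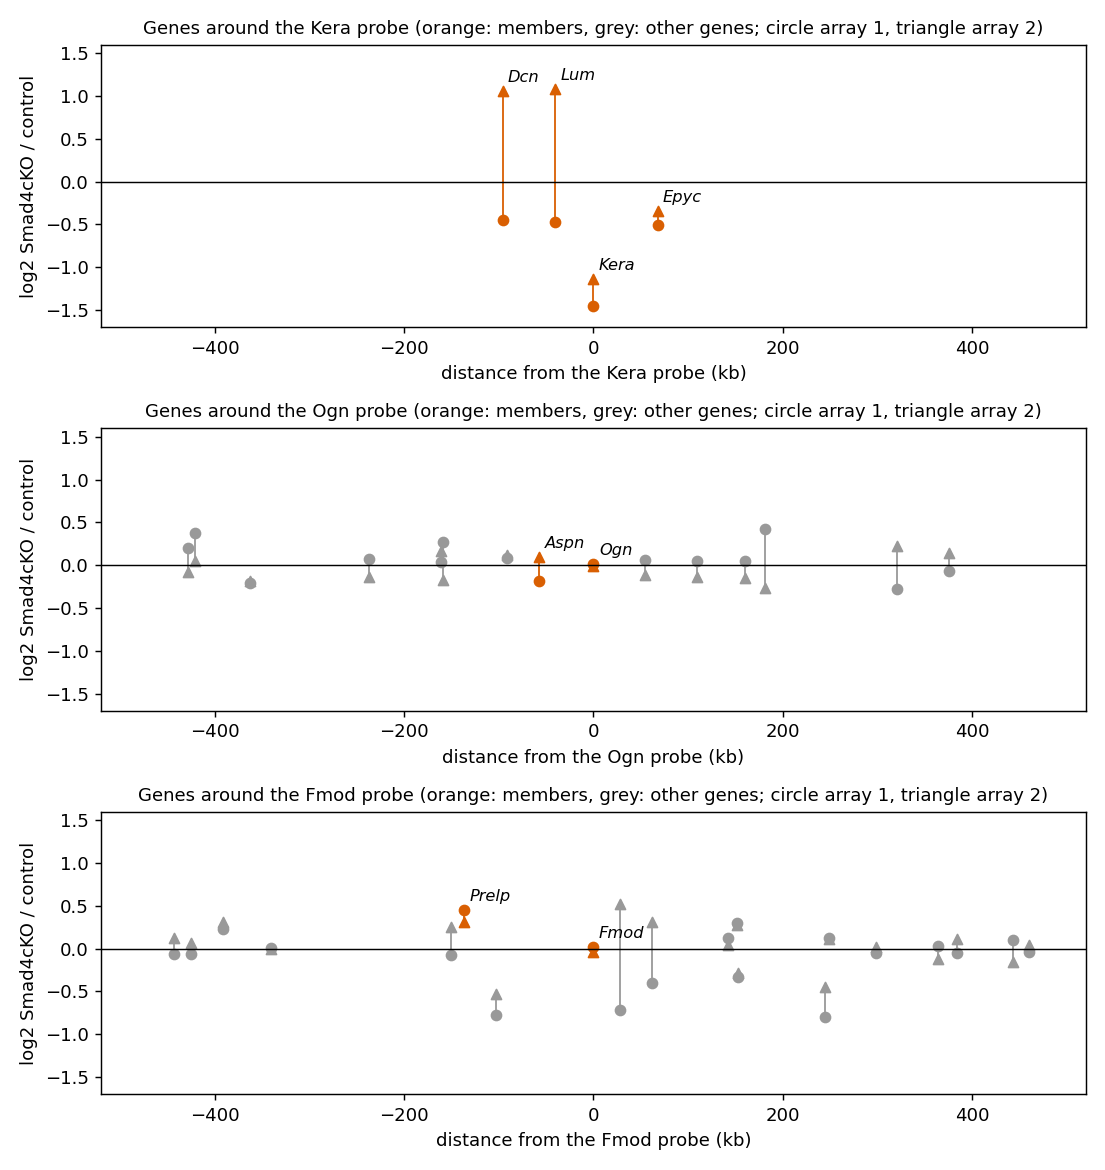
Log2 ratio of labelled Smad4cKO over labelled control against distance in kb from the Kera, Ogn and Fmod probes, for every named tested gene within 500 kb (circle array 1, triangle array 2, joined by a line; orange for members, grey for others). Kera lies below 0 between Lum, which spans 0, and Epyc, which gave -0.51 and -0.35.

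Promoter windows of 300 bases, from 250 before to 50 after the start, were given by RefSeq (GRCm38.p6) for 8 members, with 2 windows for Epyc. The short SMAD-binding motif CAGAC, searched on both strands, was present in 2 of the 9 windows, those of Prelp (3 matches) and Fmod (2 matches), and in 49.6% of 32851 windows of the same length. The palindrome GTCTAGAC (0.213% of all windows) and the BMP-SMAD motif GGCGCC (11.9%) were in 0 of the 9. TATAAA was in 2, those of Ogn and Aspn (13.6% of all windows). The E-box CANNTG was in 7 of 9, all but those of Kera and Omd (72.3% of all). A match is a letter pattern and no evidence of binding. The bases before the start are shown for Kera, the member with the lowest ratio, and for Prelp and Fmod, with CAGAC or its complement GTCTG in capitals. Of the 3 matches of Prelp, 1 lies in the bases shown, and the rest reach into the 50 bases after the start, which are not shown.
Kera (chr10:97606955-97607204, plus strand, GRCm38.p6): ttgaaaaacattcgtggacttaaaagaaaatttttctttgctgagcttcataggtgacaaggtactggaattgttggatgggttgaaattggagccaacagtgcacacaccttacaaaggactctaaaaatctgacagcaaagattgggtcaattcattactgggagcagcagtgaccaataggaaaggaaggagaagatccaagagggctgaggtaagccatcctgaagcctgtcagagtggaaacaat
Prelp (chr1:133921402-133921651, minus strand, GRCm38.p6): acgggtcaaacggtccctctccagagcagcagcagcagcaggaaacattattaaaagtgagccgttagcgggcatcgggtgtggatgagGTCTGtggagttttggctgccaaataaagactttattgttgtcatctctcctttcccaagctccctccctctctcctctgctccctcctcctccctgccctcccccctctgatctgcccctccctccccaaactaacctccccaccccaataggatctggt
Fmod (chr1:134037004-134037253, plus strand, GRCm38.p6): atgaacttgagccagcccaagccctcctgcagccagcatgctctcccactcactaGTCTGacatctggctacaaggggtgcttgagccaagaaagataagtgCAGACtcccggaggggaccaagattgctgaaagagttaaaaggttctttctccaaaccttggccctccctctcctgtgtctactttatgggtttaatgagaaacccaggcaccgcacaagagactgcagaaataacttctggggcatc
The window of Kera held 0 matches to any of the 5 motifs, which says only that these letters are not in it.

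The genes that work with these proteoglycans were followed in 8 lists with 132 tested genes. By the 1.5-fold rule 2 (1.52%) were brighter and 0 dimmer in the channel labelled Smad4cKO, against 0.489% and 0.522% of all genes tested. The same shares of all genes stand beside the list counts below. The number called by limma was 0, and the median log2 ratio was 0.02, against 0.0048 over all genes tested. Of the 2 brighter genes, Mmp9 entered through the labelled Smad4cKO alone, since its labelled control was not well above background. Among 29 genes that build the linker and the chondroitin or dermatan sulfate chains, 1 was brighter. This was Pxylp1, a xylose phosphatase of the linker, at 0.69 ± 0.13 (0.67 and 0.71; adjusted p = 0.252 with limma), and with median centring 0 of the 29 passed. Ugdh, which makes UDP-glucuronate, gave 0.54 ± 0.13, and the sulfotransferase gene Chst3 gave -0.13 ± 0.13. Keratan sulfate synthesis had 0 of 7 genes past the rule in either direction. Its sulfotransferase gene Chst2 gave -0.37 ± 0.15, Chst1 gave -0.07 ± 0.13, and the galactosyltransferase gene B4galt4 gave 0.08 ± 0.13.

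Of the collagens that these proteoglycans coat, 0 of 16 fibrillar and fibril-associated genes passed the rule. The list median was -0.33 on array 1 but 0.18 on array 2, while 4 genes were higher and 3 lower in Smad4cKO on both arrays and 9 had opposite signs. Col24a1 gave -0.48 ± 0.14, Col5a3 0.37 ± 0.15 and Col27a1 -0.21 ± 0.14. Among 24 genes of collagen processing and crosslinking 0 passed, with the lysyl oxidase gene Loxl4 at -0.62 ± 0.15 (-0.77 and -0.46), the procollagen peptidase gene Adamts14 at 0.47 ± 0.13, and the lysyl hydroxylase gene Plod2 at 0.37 ± 0.13.

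Other leucine-rich relatives had 0 of 7 genes past the rule, and Podn, which encodes podocan, gave -0.54 ± 0.13, Podnl1 gave 0.23 ± 0.13 and Chadl gave -0.25 ± 0.15. Podnl1 entered through the labelled Smad4cKO alone, since its labelled control was well above background on only 1 array. Of 20 large and cell-surface proteoglycans 0 passed, with the glypican genes Gpc5 at 0.62 ± 0.13 and Gpc1 at -0.36 ± 0.13, and Tgfbr3, the TGFB co-receptor betaglycan, at 0.52 ± 0.15. Of 22 reported binding partners 0 passed, against 2 dimmer with processed signals and 1 with median centring. The ligand gene Bmp4 gave -0.74 ± 0.18 (-1.04 and -0.43), Bmp2 gave -0.48 ± 0.13, and the CCN protein gene Ccn4 gave -0.68 ± 0.14 (-0.58 and -0.77).

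Of 9 proteases that cleave these proteins 1 was brighter, the gelatinase gene Mmp9. It passed the signal filter through the labelled Smad4cKO alone, so nothing is read from this count. The labelled control was not well above background for Mmp9 on either array, so the size of its ratio is uncertain. The measured log2 ratios were 0.73 and 0.80, and their mean of 0.76 is a 1.70-fold higher signal in the labelled Smad4cKO, from channel values open to dye bias. Htra1 gave 0.24 ± 0.14 and Adamts5 gave -0.13 ± 0.13.

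**Figure D5:**
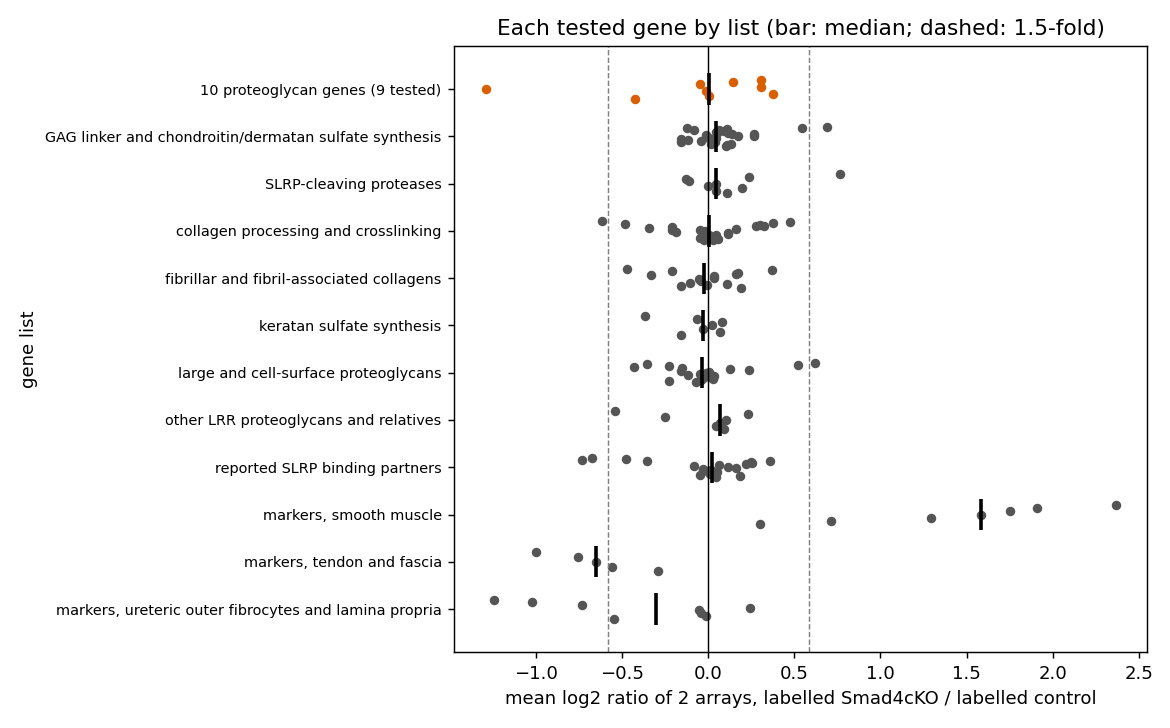
Mean log2 ratio of labelled Smad4cKO over labelled control for each tested gene (points), by list, with the list median as a bar and 1.5-fold as dashed lines; the 9 proteoglycan genes are in orange at the top. The medians of the 8 related lists lie between -0.04 and 0.07, and the smooth muscle markers lie to the right of all of them with a median of 1.59.

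Marker genes of the cells that could hold these transcripts are given beside the values of Kera. All 8 markers of ureteric outer fibrocytes and lamina propria were well above background in every channel. By the 1.5-fold rule 3 were dimmer and 0 brighter, against 0.522% and 0.489% of all genes tested. The 3 dimmer were the matrix gene Dpt (-1.25 ± 0.21), the retinoic acid-synthesising Aldh1a2 (-1.02 ± 0.17) and the BMP-related Gdf10 (-0.73 ± 0.13). Of the others, Pi16 was higher on both arrays (0.06 and 0.42), Dpp4 gave -0.10 and -0.01, and Col14a1, Ptgds and Penk had opposite signs. The median log2 ratio of the list was -0.30, with -0.57 on array 1 and -0.05 on array 2. The summed processed signal of all 8 markers was 56847 in the labelled Smad4cKO and 99172 in the labelled control on array 1, and 84329 and 105240 on array 2. Of 6 markers of tendon and fascia, 5 were tested and 2 were dimmer, Tnc (-1.37 and -0.63) and the tendon transcription factor gene Scx (-0.76 ± 0.14), while Mkx gave -0.65 ± 0.13. By sign, 4 of the 5 were lower on both arrays, and Egr1 had opposite signs (-1.01 and 0.43). The list median was -0.65. With processed signals 4 of the 5 were dimmer by the rule, and Tnmd was not well above background in any channel. The sums of this list were 9992 and 20220 on array 1 and 17241 and 14401 on array 2, so the order of the groups differed between the arrays. The part of either marker list in the values of Kera was not tested.

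Of 9 tested cartilage and bone markers 1 was brighter, Alpl (0.94 ± 0.16), and 0 were dimmer, with Col9a1 at -0.50 ± 0.14. Over all genes tested, 0.489% were brighter and 0.522% dimmer by the rule, which also stands beside the counts below. Matn1, Matn3 and Runx2 were not well above background in any channel. The sums of this list were 21631 and 28985 on array 1 and 28258 and 33616 on array 2, in the order Smad4cKO and control, beside the lower values of Epyc in Smad4cKO. The median log2 ratio of the list was 0.04, with 3 genes higher and 1 lower on both arrays, so the sums and the median differed in direction. Of the 3 higher genes, Ibsp (0.04 and 0.67) entered through the labelled Smad4cKO alone, since its labelled control was not well above background. The part of this list in the values of Epyc was not tested. Of 8 kidney markers 1 was dimmer, Gdnf (-1.95 ± 0.15), and the list median was -0.21. By sign, 5 were lower on both arrays and 3 had opposite signs, among them Six2 (0.25 and -1.05). Of 8 mesothelium and gonad markers 1 was dimmer, Wt1 (-0.98 ± 0.15), and the list median was -0.17. Here 4 were lower on both arrays and 4 had opposite signs, among them Krt19 (0.53 and -0.20). Smooth muscle markers were brighter in the channel labelled Smad4cKO in 6 of 7 by the rule. Myh11, the smooth muscle myosin gene, gave 2.37 ± 0.18 (2.08 and 2.65, adjusted p = 0.0734 with limma). The exception was Tagln, with 0.07 and 0.53 on the 2 arrays. All 7 markers of smooth muscle, 8 of ureteric epithelium and 7 of ureteric mesenchyme were well above background in every channel, and 8 of 10 kidney markers were too.

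The targeted gene Smad4 gave -0.69 and -0.14, a mean of -0.42 ± 0.17 (limma SE, n = 2 arrays), and whether its probe lies in the deleted part is not given. Tbx18 gave 0.07 and 0.81, a mean of 0.44 ± 0.20. Between 68.3% and 70.3% of spots were well above background across the 4 channels, and 0 were saturated. With 2 arrays, a single array decides much of each value, and Lum and Dcn would both be at or beyond 1.5-fold brighter in Smad4cKO from array 2 alone and at neither direction from array 1 alone.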

How the data were processed

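The submitters' processing notes name Agilent Feature Extraction, version 10.7.3.1, as the scanner software. Intensities of each spot were deposited: mean signals, background medians and processed signals are given for each dye, per the file headers. Each spot's red over green ratio, deposited as log10, comes from the processed signals, per the file headers, and was not used here. Processed signals had already been background-subtracted and dye-normalized, per the file headers. The authors' deposited table holds a signed fold (a ratio, or minus its inverse), whose direction was found by setting it against the processed signals: it runs as control over Smad4cKO by the dye labels on both arrays, and its median is 1 in each column.

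Mean signals were corrected with normexp (offset 50) and loess within each array (limma 3.58.1, R 4.3.3), with control spots at weight 0 and outlier spots left out. Spots of a probe were averaged. Of 39429 probes, 26670 had the same labelled group well above background on both arrays, and the brightest stood for its gene. limma (lmFit, eBayes) tested each gene's 2 ratios against 0, with 1 residual degree of freedom, so the SE rests mostly on spread pooled over genes. In simulated data it recovered 67 of 100 genes changed by 1 on the log2 scale, and the 1.5-fold rule 82. The simulated noise was independent between the arrays and held no dye effect, so these shares need not hold for the real arrays. Figures and sequence searches used Python 3.11.15. The members and lists were chosen with earlier results of these data known. Named genes were all members, the nearest tested neighbours, and up to 3 genes of each list whose arrays shared a sign, ordered by the smaller ratio. Protein sequences were not used here.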

Additional observations from a re-analysis of the deposited data

How the results depend on the processing

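Kera passed the 1.5-fold rule in each of the 5 settings of signal, background and scaling that could move its value, with a mean log2 ratio from -1.43 to -1.29. The other 4, on filters, outlier spots and the choice of probe, left the value of its single probe as it was. Over all 9 settings Epyc ran from -0.45 to -0.42, Lum from 0.26 to 0.32, Dcn from 0.25 to 0.31 and Prelp from 0.38 to 0.71, and Ogn and Fmod changed sign around 0. Median centring in place of loess gave Lum -1.27 and 1.78 and Dcn -1.47 and 1.97 on the 2 arrays. Over all genes, brighter and dimmer limma calls were 32 and 30 with normexp offset 10, 145 and 164 with processed signals, 70 and 77 with the authors' deposited values, and 290 and 395 under robust estimation with an intensity trend. Dimmer calls were 1 with no background subtraction, 1 with both channels above background and 1 with no filter. By the 1.5-fold rule, brighter and dimmer genes were 184 and 199 with processed signals and 177 and 184 with the authors' deposited values, and 21 and 25 at 2-fold. Genes at 1.5-fold in opposite directions on the 2 arrays were 1447 with median centring, against 269 in the main setting, and those at 2-fold in opposite directions were 28. The cause was not tested. Leaving out 1 array gave 256 to 640 brighter and 242 to 687 dimmer genes, and 0 to 2 brighter members: Lum and Dcn without array 1. Each ratio is taken within a pair on 1 array, so the limma fit already is the paired one.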
